A study of Mus musculus with 6 samples.

Results

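The 10 genes described here encode the enzymes and mitochondrial carriers of the urea cycle, with the enzymes that use arginine and ornithine beside it. They were chosen by gene symbol as Cps1, Otc, Ass1, Asl, Arg1, Arg2, Nags, Slc25a13, Slc25a15 and Odc1. All 10 were found among the 55536 genes of the deposited count table, and 9 of them (all but Arg2) were among the 15374 genes kept by the default low-count filter of edgeR. Ass1, Arg2 and Odc1, which are also expressed outside the liver, were set against the other 7, called the hepatic genes below. The name is a label of the selection and does not mean that all 7 are expressed in the liver alone. RNA was sequenced from tumors of untreated control mice (3 libraries, control 5, 6 and 7) and of mice given GOx-DOX-LGP (3 libraries, GOx-DOX-LGP 1, 2 and 5). GOx-DOX-LGP is a lipid-gelatin-protamine nanogel that carries the enzyme glucose oxidase (GOx) together with the drug doxorubicin (DOX). In both groups, 1000000 cells of HCA-1, a murine hepatocellular carcinoma (HCC) line, had been injected under the liver capsule of male C3H mice (C3H/HeNCrNarl in the study's methods) aged 6 to 8 weeks, so that every tumor descends from 1 cell line and lies next to the host's own hepatocytes. The labels place the doses on days 18, 19 and 20 and the transcriptome analysis on day 17 after 3 h of circulation, which cannot both hold. The study's methods place the harvest of tumors dosed in this way on the day after the last dose. They do not state that each library is a separate mouse, and p-values therefore measure the spread between libraries.

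The urea cycle turns the ammonia released by amino acid breakdown into urea, and runs in full mainly in hepatocytes around the portal vein. Its first steps take place in mitochondria, where N-acetylglutamate made by NAGS switches on CPS1, and OTC joins the resulting carbamoyl phosphate to ornithine to give citrulline. In the cytosol, ASS1 and ASL convert citrulline and aspartate to arginine, and ARG1 splits arginine into urea and ornithine. Citrin, the product of Slc25a13, exports the aspartate, and the product of Slc25a15 exchanges ornithine for citrulline across the inner mitochondrial membrane. Outside the hepatocyte, ARG2 is the mitochondrial arginase of many tissues, ASS1 and ASL recycle citrulline to arginine, myeloid cells can make ARG1, and ODC1 commits ornithine to polyamines, which dividing cells need.

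Raw counts summed to between 15529940 and 18401178 per library. Levels are given as CPM, counts per 1000000 of a library size scaled with the TMM method of edgeR, whose factors lay between 0.569 (control 7) and 1.241. The control libraries differed from each other before any comparison with treatment. Over the genes kept, log2 CPM had a Pearson's r of 0.969 between controls 6 and 7, but 0.730 and 0.659 between control 5 and these libraries, and control 5 had an r of 0.966 to 0.975 with the GOx-DOX-LGP libraries. The summed level of 12 hepatocyte markers (among them Alb, Ttr and Apoa1) was 765 CPM in control 5, 134461 CPM in control 6 and 213967 CPM in control 7, and 3910, 1607 and 2189 CPM in GOx-DOX-LGP 1, 2 and 5. None of these markers was at 0 in any library. Of the markers of the labelled tumor, Afp and Gpc3 were low in every library, at no more than 13.2 and 2.29 CPM, whereas Spp1 measured 6838, 463 and 178 CPM in controls 5, 6 and 7 against 6936, 4589 and 5616 CPM in the treated libraries. In bulk tumor RNA, fewer cells of a type and less RNA per cell cannot be told apart.

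Transcripts of 8 of the 10 genes (the 7 hepatic genes and Ass1) were abundant in controls 6 and 7 and scarce in the other 4 libraries, control 5 included. Both of these controls lay above all other libraries for each of the 8 genes, by 6.68-fold (Arg1) to 73.7-fold (Otc) between the lower of the pair and the highest of the rest. For 7 of the 8, control 5 was the lowest library of all, the exception being Slc25a13, which was lowest in GOx-DOX-LGP 2. The groups therefore overlapped for all 10 genes. Together the 8 genes took 0.554% and 0.740% of all counts in controls 6 and 7, against 0.0119% in control 5 and 0.0304%, 0.0352% and 0.0222% in GOx-DOX-LGP 1, 2 and 5. Ass1, chosen for the contrast, was thus placed with the hepatic genes, while Arg2 and Odc1 were not.

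**Figure D1:**
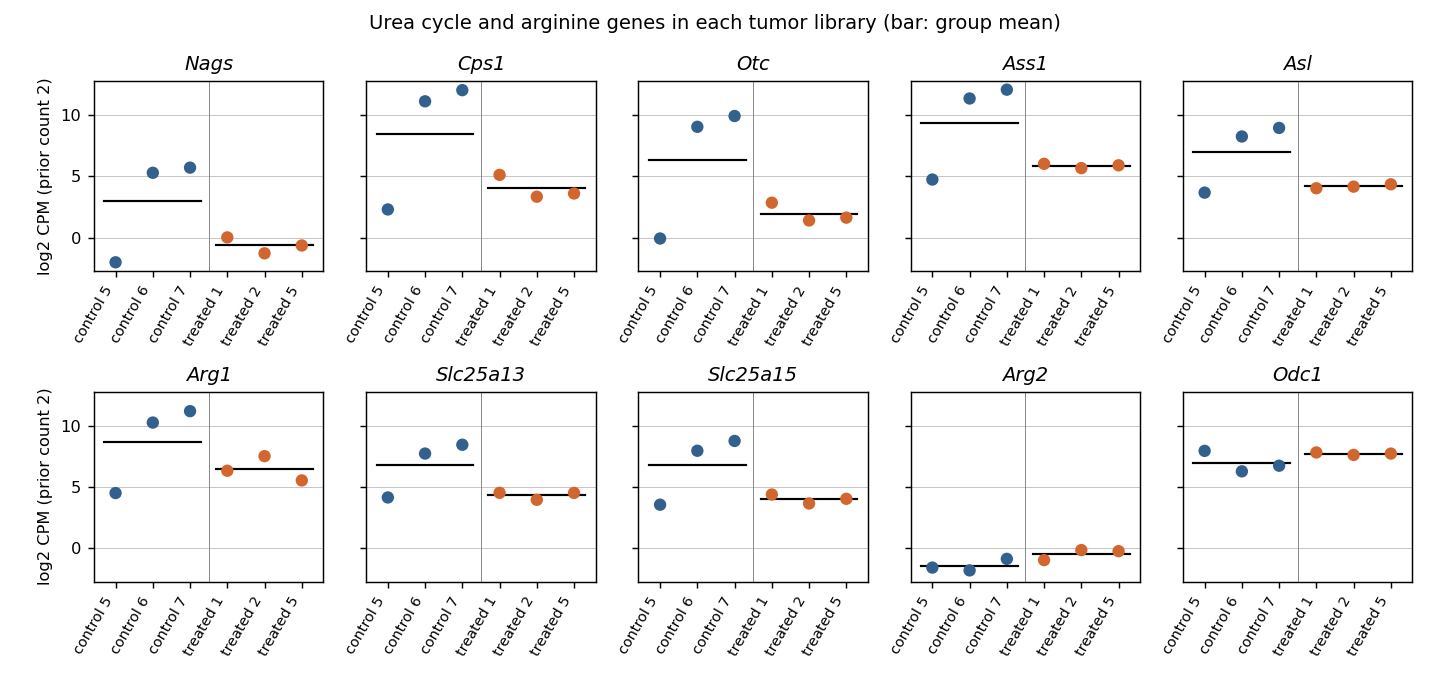
Level of each of the 10 genes in every library, as log2 CPM with a prior count of 2 (vertical axis), for the 3 control libraries (blue) and the 3 GOx-DOX-LGP libraries (orange), with black bars at the group means. In the panels of Nags, Cps1, Otc, Ass1, Asl, Arg1, Slc25a13 and Slc25a15, controls 6 and 7 sit far above the other 4 libraries, while Odc1 is lowest in control 6 and highest in control 5.

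Of the genes of the mitochondrial steps, Nags (ENSMUSG00000048217, GRCm38 chromosome 11, 102145513 to 102149477, plus strand) encodes the synthase of the CPS1 activator. It measured 0.132 CPM in control 5, 38.8 CPM in control 6 and 51.8 CPM in control 7, and 0.890, 0.294 and 0.520 CPM in GOx-DOX-LGP 1, 2 and 5. The control 5 value is 3 counts, with an exact 95% Poisson interval of 0.619 to 8.77 counts (intervals and floors cover counting error only), so that it lies at the floor taken here for a library. The treated libraries held 18, 6 and 10 counts, and the interval of GOx-DOX-LGP 1 (10.7 to 28.4 counts) lay above that of control 5, whereas those of GOx-DOX-LGP 2 (2.2 to 13.1) and 5 (4.8 to 18.4) overlapped it.

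Cps1 (ENSMUSG00000025991, chromosome 1, 67123026 to 67231259, plus strand) encodes the ammonia-fixing carbamoyl phosphate synthetase. It measured 4.78, 2206 and 4150 CPM in controls 5, 6 and 7, against 34.5, 9.94 and 11.9 CPM in GOx-DOX-LGP 1, 2 and 5. In control 7 this single gene made up 0.236% of all counts (95% Wilson interval 0.233% to 0.238%), and in control 5 it made up 0.000592% (0.000491% to 0.000714%). The span between these controls, 868-fold, exceeded any difference between a treated library and control 5, which was at most 7.20-fold.

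Otc (ENSMUSG00000031173, chromosome X, 10252305 to 10321024, plus strand) encodes ornithine transcarbamylase. Its levels were 0.834, 521 and 965 CPM in controls 5, 6 and 7, against 7.07, 2.5 and 2.97 CPM in GOx-DOX-LGP 1, 2 and 5. All treated libraries were above control 5, by 3.00-fold to 8.48-fold, and far below controls 6 and 7. Among the treated libraries, GOx-DOX-LGP 1 was the highest for Nags, Cps1 and Otc, and it was also the highest for Alb, the gene of serum albumin, at 1893 CPM against 733 and 1061 CPM.

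In the cytosol, Ass1 (ENSMUSG00000076441, chromosome 2, 31470207 to 31520672, plus strand) encodes argininosuccinate synthetase. It measured 26.5, 2588 and 4281 CPM in controls 5, 6 and 7, against 64.1, 50.6 and 59.2 CPM in GOx-DOX-LGP 1, 2 and 5. The treated libraries differed from each other by no more than 1.27-fold and were 1.91-fold to 2.42-fold above control 5. Of the 50-base stretches in Ass1 transcripts, 38.6% also occur in the processed pseudogene Gm5424, which collected at most 68 counts in any library, so that the split of reads between the pair is uncertain.

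Asl (ENSMUSG00000025533, chromosome 5, 130011258 to 130029247, minus strand) encodes argininosuccinate lyase. Its levels were 12.5, 303 and 490 CPM in controls 5, 6 and 7, against 16.1, 17.7 and 20.1 CPM in GOx-DOX-LGP 1, 2 and 5. The range within the treated group was 1.25-fold, and the treated libraries exceeded control 5 by 1.29-fold to 1.61-fold.

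Arg1 (ENSMUSG00000019987, chromosome 10, 24915221 to 24927484, minus strand) encodes the cytosolic arginase that releases urea. It measured 22.5, 1214 and 2328 CPM in controls 5, 6 and 7, against 79.6, 182 and 46.1 CPM in GOx-DOX-LGP 1, 2 and 5. Among the 10 genes, Arg1 had the widest range within the treated group (3.94-fold), and its highest treated library was GOx-DOX-LGP 2, not GOx-DOX-LGP 1 as for Nags, Cps1 and Otc. The 10 macrophage markers had a summed level of 970 CPM in GOx-DOX-LGP 2, and of 343 and 477 CPM in GOx-DOX-LGP 1 and 5, against 355, 519 and 312 CPM in controls 5, 6 and 7. Among them, the mannose receptor gene Mrc1 measured 390 CPM in GOx-DOX-LGP 2, and 104 and 139 CPM in the other treated libraries, and Chil3, at 0 in control 7, reached no more than 2.55 CPM. Of the 9 macrophage markers kept, 8 had a log2 fold change above 0 (median 0.71), and DESeq2 called 3 of them higher, where it called 0.684% of all genes higher. Retnla, the marker that the edgeR filter removed, was called lower by DESeq2 (-4.10, adjusted p 0.0378). Marco, another macrophage marker, was lowest among treated libraries in GOx-DOX-LGP 2, at 2.30 CPM against 5.39 and 13.4 CPM. The 6 fibroblast markers were also highest in GOx-DOX-LGP 2 among treated libraries, with a summed level of 6873 CPM. They summed to 4569 and 2186 CPM in GOx-DOX-LGP 1 and 5, and to 5709, 1726 and 1406 CPM in controls 5, 6 and 7. The part of macrophages or of fibroblasts in the Arg1 level of GOx-DOX-LGP 2 was not tested.

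The mitochondrial carriers had the shallowest differences of the hepatic genes together with Arg1 and Asl. Slc25a13 (ENSMUSG00000015112, chromosome 6, 6041218 to 6217173, minus strand), the citrin gene, measured 17.5, 211 and 347 CPM in controls 5, 6 and 7, against 22.8, 15.3 and 22.7 CPM in GOx-DOX-LGP 1, 2 and 5. Slc25a15 (ENSMUSG00000031482, chromosome 8, 22375551 to 22398597, minus strand), the ornithine carrier gene, measured 11.6, 248 and 432 CPM in the controls, and 20.7, 12.4 and 16.2 CPM in the treated libraries. For both carriers, control 5 was within 1.79-fold of every treated library.

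Slc25a12, which encodes aralar, the aspartate-glutamate carrier of non-hepatic tissues, stayed between 22.9 and 38.4 CPM in all libraries. The log2 ratio of Slc25a13 to Slc25a12 counts was 3.10 and 3.92 in controls 6 and 7, and -1.13 in control 5 and -0.46, -1.29 and -0.53 in GOx-DOX-LGP 1, 2 and 5. It was higher in controls 6 and 7 than in the other 4 libraries. Slc25a2, the gene of a second ornithine carrier, was at no more than 0.254 CPM and was at 0 in GOx-DOX-LGP 5.

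Arg2 (ENSMUSG00000021125, chromosome 12, 79130777 to 79156301, plus strand), the gene of the mitochondrial arginase, was barely detected. It had 5, 2 and 4 counts in controls 5, 6 and 7, against 8, 16 and 14 counts in GOx-DOX-LGP 1, 2 and 5, or 0.219, 0.170 and 0.430 CPM and 0.395, 0.784 and 0.728 CPM. The groups overlapped because control 7 lay above GOx-DOX-LGP 1, and a two-sided exact permutation test of log2 CPM gave p = 0.2. With scaling by library totals or by the upper quartile the groups no longer overlapped, and the p of the same exact test was 0.1, the smallest that 3 libraries against 3 allow. Vti1b, a gene with 550 to 1070 counts per library, overlaps Arg2 exons on the opposite strand, and 21.2% of the 50-base stretches of Arg2 are shared with it and with Gm48780. Use of strand in counting is not given in the sources used here, so a part of these few counts may belong to Vti1b. With so few counts, the comparison of Arg2 depended on the scaling.

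Odc1 (ENSMUSG00000011179, chromosome 12, 17544794 to 17551505, plus strand) encodes ornithine decarboxylase. It measured 246, 77.1 and 106 CPM in controls 5, 6 and 7, against 224, 195 and 211 CPM in GOx-DOX-LGP 1, 2 and 5. In contrast to the hepatic genes, controls 6 and 7 were the lowest libraries and control 5 was the highest. The treated libraries lay within 1.15-fold of each other and at 0.791 to 0.909 times control 5. Of the 50-base stretches in Odc1, 24.3% occur in other genes, chiefly the processed pseudogene Gm7993, which had 1050, 240 and 257 counts in controls 5, 6 and 7 against 951, 856 and 1133 in the treated libraries. Genes of cell division had a like order, since the summed level of 7 proliferation markers such as Mki67 and Top2a was 1044, 323 and 81.9 CPM in the controls and 963, 751 and 959 CPM in GOx-DOX-LGP 1, 2 and 5. Their part in the Odc1 level was not tested.

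The promoters of Otc, Ass1 and Odc1 are shown. Otc stands for the hepatic genes. Ass1 is a widely expressed gene with the same order of libraries as Otc, and Odc1 is a widely expressed gene with another order. RefSeq sequences on GRCm38.p6 were matched by symbol for 6 of the 10 genes, and Cps1, Asl, Arg1 and Arg2 had no entry. The 250 bases before the start site were searched on both strands for TATAAA (held by 12.4% of 32851 promoters of this length), for the E-box CACGTG (6.02%), for TTGCNNAA (9.56%) and for CAAAGTC (3.84%), and matches are in capitals. Otc and Odc1 were planned for display and Ass1 was added after its values had been seen.
Otc (chrX:10252055-10252304, plus strand): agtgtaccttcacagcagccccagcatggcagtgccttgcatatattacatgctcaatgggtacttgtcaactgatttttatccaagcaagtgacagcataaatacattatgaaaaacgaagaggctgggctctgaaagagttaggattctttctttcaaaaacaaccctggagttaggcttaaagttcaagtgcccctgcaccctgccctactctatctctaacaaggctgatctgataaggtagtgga
Ass1 (chr2:31470020-31470269, plus strand): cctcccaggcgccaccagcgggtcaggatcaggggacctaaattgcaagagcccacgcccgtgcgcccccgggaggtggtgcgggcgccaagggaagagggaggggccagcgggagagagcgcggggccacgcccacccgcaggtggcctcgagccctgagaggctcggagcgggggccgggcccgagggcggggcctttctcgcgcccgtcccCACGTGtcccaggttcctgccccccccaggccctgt
Odc1 (chr12:17544623-17544872, plus strand): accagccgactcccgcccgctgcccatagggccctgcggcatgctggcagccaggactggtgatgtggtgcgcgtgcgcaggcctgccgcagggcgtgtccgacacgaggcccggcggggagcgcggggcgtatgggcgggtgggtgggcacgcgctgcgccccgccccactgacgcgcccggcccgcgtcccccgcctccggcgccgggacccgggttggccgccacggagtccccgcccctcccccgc
The Otc window had 43.6% G and C, against 75.6% for Ass1 and 80.0% for Odc1. The Ass1 window held CACGTG beginning 36 bases before the start site, and no searched motif was in the windows of Otc, Odc1 or Nags. CACGTG also occurred 125 bases before the start of Slc25a13 and 77 bases before 1 of the 2 starts listed for Slc25a15. These start sites are those of RefSeq and differ in part from the gene positions given above. The Ass1 and Odc1 windows reach into the genes as placed above, and the Ass1 match lies in the part inside the gene. The Slc25a15 window with the motif lies wholly within its gene as placed above. Genes with and without this motif were therefore both among those high in controls 6 and 7, and a match of letters describes the window only.

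The question of the comparison was how tumors of mice given GOx-DOX-LGP differed from untreated tumors. By edgeR's quasi-likelihood test over all 6 libraries, 8 of the 9 genes tested had a negative and 1 (Odc1) a positive log2 fold change, where 48.9% of all genes tested were below 0. The log2 fold changes (treated over control) were -5.71 for Nags (standard error 1.78), -6.82 for Cps1 (2.14), -6.89 for Otc (2.14) and -5.31 for Ass1 (1.61). For Asl the value was -3.90 (standard error 1.18), for Arg1 -3.54 (1.47), for Slc25a13 -3.24 (0.99), for Slc25a15 -3.81 (1.17) and for Odc1 0.55 (0.46). Arg2, which did not pass the filter, had a log2 fold change of 1.31 in the edgeR fit without a filter, with an adjusted p of 0.534. Of the 9 genes, 8 lay under -2 and 4 (Nags, Cps1, Otc and Ass1) under -4, where 8.62% and 3.86% of all genes did. The median of the 7 hepatic genes was -3.90, against 0.02 over all 15374 genes tested.

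None of the 9 genes passed an adjusted p of 0.05 in this test, as was true of all genes (0% called). Adjusted p was 0.247 for Nags, Cps1, Otc, Ass1, Asl, Slc25a13 and Slc25a15, 0.289 for Arg1 and 0.520 for Odc1. Of the 9 genes, 7 had an unadjusted p under 0.05, all lower in treated tumors, as had 14.6% of all genes tested (lower) and 2.87% (higher). DESeq2, run as an alternative, placed 8 of the 10 genes past an adjusted p of 0.05, all lower, with values from 0.000523 for Cps1 and Otc to 0.0421 for Arg1, where 9.85% of all genes were called lower and 0.684% higher. Odc1 had an adjusted p of 0.540 and Arg2 of 0.316 in DESeq2. The edgeR exact test called 7 of the 9 genes, all lower (6.75% of all genes lower, 0.397% higher), and limma voom with quality weights per library called 8 lower and Odc1 higher (30.9% lower, 29.2% higher).

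These fitted fold changes compare mean levels, which controls 6 and 7 dominate. On the log2 CPM scale the difference between group means was smaller, at -4.46 for Cps1, -4.34 for Otc and -2.19 for Arg1, because control 5 then weighs as much as each of the other controls. The SD of log2 CPM among controls was 5.37 for Cps1 and 5.53 for Otc (n = 3), larger than the difference itself, and 0.96 and 0.78 among treated libraries (n = 3). Two-sided exact permutation tests gave p = 0.4 for Nags, Cps1, Otc, Ass1, Asl, Arg1, Slc25a15 and Odc1, and 0.3 for Slc25a13, where the smallest possible p is 0.1. By this test, no difference was distinguishable from the spread between libraries.

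The edgeR calls depended on control 5. Without it, edgeR placed 9 of the 10 genes past an adjusted p of 0.05, the 8 others lower and Odc1 higher, with 25.5% of all 16249 genes tested called lower and 22.2% higher. Adjusted p then ranged from 5.28e-05 for Asl to 0.00369 for Odc1, whose log2 fold change was 1.23 in place of 0.55. Against the remaining 2 controls, the log2 fold change was -7.37 for Cps1 and -3.75 for Slc25a13. Leaving out any other library gave 0 calls among the members, as among all genes tested (0%).

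**Figure D2:**
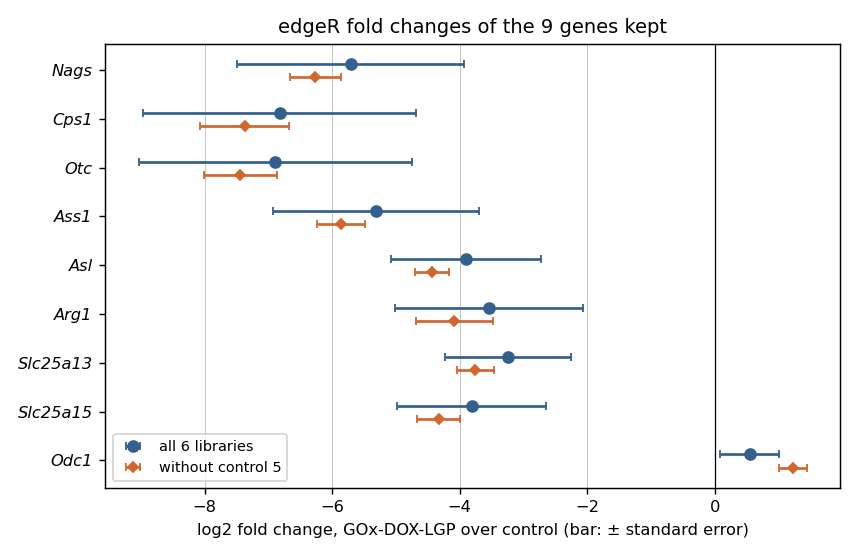
Log2 fold changes of GOx-DOX-LGP over control (horizontal axis) from edgeR for the 9 genes kept, with all 6 libraries (blue circles) and without control 5 (orange diamonds), bars giving the standard error. The standard errors shrink when control 5 is left out, for example around -6.82 and then -7.37 for Cps1, and Odc1 is the only gene above 0.

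Ratios of 2 genes within a library do not depend on scaling. Cps1 and Otc, the consecutive mitochondrial enzymes, kept nearly the same ratio everywhere, a log2 ratio of counts of 2.52, 2.08 and 2.11 in controls 5, 6 and 7, beside 2.29, 1.99 and 2.01 in GOx-DOX-LGP 1, 2 and 5. Its span of 0.53 on the log2 scale contrasts with the 868-fold and 1160-fold spans of the levels of Cps1 and Otc. The pair was chosen after its values had been seen, and the ratio is a description.

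The ratio to Alb divided the hepatic genes. Nags kept a log2 ratio to Alb between -11.39 and -10.90 in all libraries, a span of 0.49. Its 3 counts in control 5, and 18, 6 and 10 counts in GOx-DOX-LGP 1, 2 and 5, leave these ratios and the narrow span uncertain. Cps1 spanned 1.53, Otc 1.68 and Ass1 1.17. Asl spanned 3.21, Slc25a15 3.29, Arg1 3.92 and Slc25a13 4.2. The log2 ratio to Alb of Slc25a13 was -8.45 and -8.53 in controls 6 and 7 but -4.33 in control 5 and -6.38, -5.58 and -5.55 in the treated libraries. Cps1 went the other way, with -5.06 and -4.95 in controls 6 and 7 and -6.20, -5.78, -6.20 and -6.48 in control 5 and GOx-DOX-LGP 1, 2 and 5. A ratio to Alb must rise where Alb is scarce for any gene that varies less than Alb. Odc1 and Arg2, outside the hepatic genes, had the wider spans of 9.72 and 8.86. Arg1 was highest relative to Alb in GOx-DOX-LGP 2, at -2.01, against -4.57 and -4.52 in the other treated libraries.

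**Figure D3:**
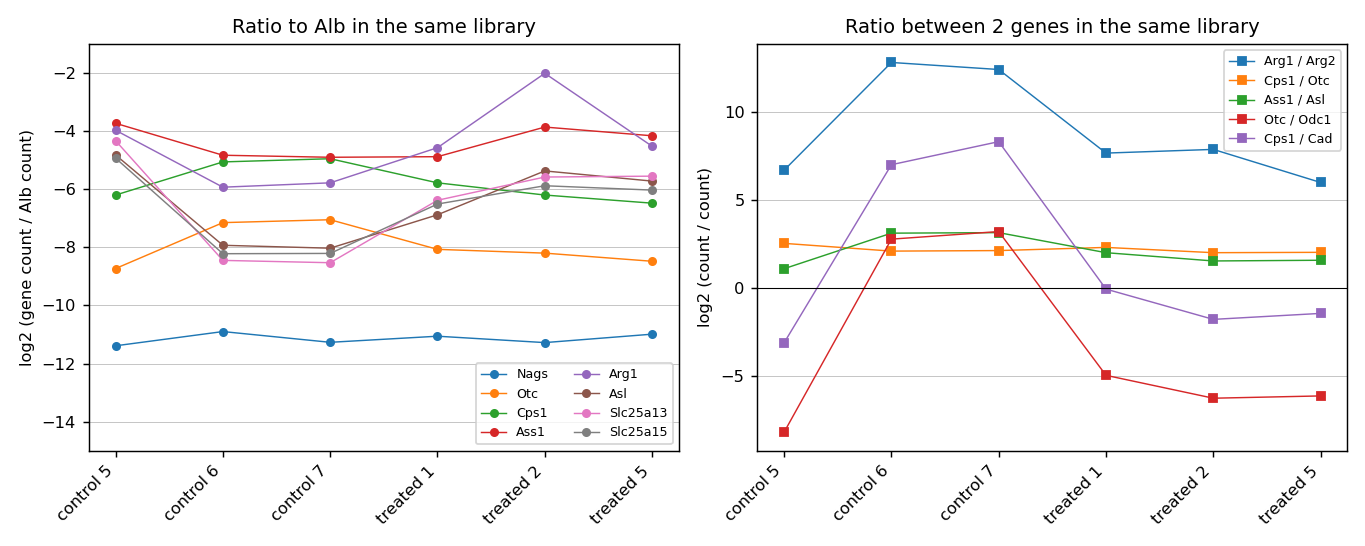
Log2 ratios of raw counts within each library (vertical axes), on the left of 8 genes to Alb and on the right between pairs of genes, with lines that only join the points of 1 ratio. The Cps1 to Otc ratio stays between 1.99 and 2.52, whereas Otc to Odc1 runs from -8.21 in control 5 to 3.19 in control 7 and Cps1 to Cad from -3.13 to 8.30, and Arg1 to Alb peaks in GOx-DOX-LGP 2.

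Ratios of enzymes that share a substrate or product were higher in controls 6 and 7 than in the other 4 libraries. Their level also depends on the lengths of both genes, so that only differences between libraries are read from them. For ornithine, the log2 ratio of Otc to Odc1 was 2.76 and 3.19 in controls 6 and 7, -8.21 in control 5 and -4.98, -6.28 and -6.15 in GOx-DOX-LGP 1, 2 and 5. The mean was -0.75 ± 6.46 in controls and -5.81 ± 0.72 in treated libraries (SD, n = 3, two-sided exact permutation test, p = 0.4). For carbamoyl phosphate, Cps1 was set against Cad, whose product makes it for pyrimidine synthesis in the cytosol. Their log2 ratio was -3.13, 6.99 and 8.30 in controls 5, 6 and 7, against -0.08, -1.80 and -1.46 in the treated libraries (exact permutation p = 0.4).

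Of the arginases, Arg1 ranked above Arg2 per kilobase in every library, and the log2 ratio of their counts was 6.68, 12.80 and 12.40 in controls 5, 6 and 7, set beside 7.65, 7.86 and 5.98 in GOx-DOX-LGP 1, 2 and 5 (exact permutation p = 0.3). The Arg2 counts behind it are few, at 2 to 16. Ass1 over Asl, the pair that recycles citrulline, had a log2 ratio of 1.08, 3.10 and 3.13 in the controls and of 1.99, 1.52 and 1.56 in the treated libraries (exact permutation p = 0.4). The groups overlapped for each of these 4 ratios.

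Levels of different genes were compared after division by exon length. In controls 6 and 7 the order from the top was Ass1, Arg1, Cps1 and Otc, with 1072, 545, 397 and 123 CPM per kilobase in control 6. Odc1 stood eighth in both, at 22.6 and 31.1 CPM per kilobase. In control 5 and in GOx-DOX-LGP 1 and 5 Odc1 stood first, at 72.3, 65.7 and 62.0 CPM per kilobase. In GOx-DOX-LGP 2, Arg1 stood first at 81.5 and Odc1 second at 57.2 CPM per kilobase. Neighbours such as Asl and Slc25a13 (3.34 and 6.00 in GOx-DOX-LGP 1, 3.66 and 4.04 in GOx-DOX-LGP 2) changed distance between libraries of 1 group, and their order in treated tumors was not tested.

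Genes with the library profile most like that of a member were found by the root mean square difference of centred log2 CPM over the 6 libraries. For Cps1 they were Uroc1 (0.13), which encodes urocanase of histidine breakdown, Hpd (0.17) of tyrosine breakdown, and the transporter gene Slc6a13 (0.18). Nat8f1 (0.12), Cyp2d22 (0.15) and the pyruvate carboxylase gene Pcx (0.15) were nearest to Ass1. The genes nearest to Odc1 were Rdh10 (0.09), a retinol dehydrogenase gene, B230369F24Rik (0.10) and Tmem268 (0.11). Those nearest to Arg2 were Gm12537 (0.19), Gm9843 (0.24) and Ildr1 (0.27).

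Genes around the cycle were described by lists, in which edgeR called 0 genes. In the supply of ammonia and aspartate, 8 of 10 genes kept were below 0, and the median log2 fold change was -1.91. Of these, 6 had an unadjusted p under 0.05, and DESeq2 called 4, all lower, against 14.6% and 9.85% of all genes lower by the same rules. Slc38a3, a glutamine transporter gene, measured 4.52, 1286 and 2076 CPM in controls 5, 6 and 7 against 25.7, 9.90 and 10.6 CPM in the treated libraries (log2 fold change -6.19). Gls2, the liver-type glutaminase gene, had a log2 fold change of -4.78, Glul, the glutamine synthetase gene, of -2.51, and Got2, the mitochondrial aspartate aminotransferase gene, of -2.31. Car5a, the mitochondrial carbonic anhydrase gene that supplies bicarbonate to CPS1, was at 0 in control 5 and GOx-DOX-LGP 5, and at 15.6 and 27.7 CPM in controls 6 and 7. GOx-DOX-LGP 1 and 2 had 6 and 3 counts of it. It did not pass the edgeR filter, and DESeq2 called it lower (adjusted p 0.0100).

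Ornithine can also pass to glutamate and proline. Oat, Prodh and Aldh4a1, which act in ornithine and proline breakdown, had log2 fold changes of -3.15, -3.90 and -4.58, and DESeq2 called all 3 lower (9.85% of all genes). The proline synthesis genes Aldh18a1 and Pycr1 had log2 fold changes of 0.92 and 0.57, both with overlapping groups. Over all genes, 8.87% had treated libraries entirely above and 8.31% entirely below the controls.

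In polyamine metabolism, 7 of 10 genes were above 0, with a median of 0.11. There were 3 genes higher without overlap, namely Sms (spermine synthase, log2 fold change 0.74), Smox (spermine oxidase, 1.05) and Azin2 (an antizyme inhibitor, 0.61), and Azin1, another antizyme inhibitor that spares ODC1 from breakdown, was lower without overlap (-0.52). Smox measured 12.9, 6.11 and 3.23 CPM in controls 5, 6 and 7, against 14.7, 15.6 and 16.0 CPM in GOx-DOX-LGP 1, 2 and 5. Adjusted p from edgeR was 0.349 for Sms, 0.334 for Smox, 0.293 for Azin2 and 0.351 for Azin1. Of all genes, 8.87% were higher and 8.31% lower without overlap. Overlap was judged with TMM scaling. With library totals alone, 1 gene of the list lay below 0, where 3 did with TMM, so the direction of Azin1 depended on the scaling. Paox, the gene of a polyamine oxidase, had the largest change of the list (-2.48, called by DESeq2 with an adjusted p of 0.0267). Srm, the spermidine synthase gene (0.56), and Oaz1, the antizyme gene (-0.22), had overlapping groups.

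Of 9 genes for arginine entry and nitric oxide, 7 lay above 0, and their median log2 fold change was 0.32. Nos2, the inducible nitric oxide synthase gene, measured 3.47, 0.254 and 0.215 CPM in controls 5, 6 and 7, against 7.41, 16.7 and 6.92 CPM in GOx-DOX-LGP 1, 2 and 5. Controls 6 and 7 held 3 and 2 counts of Nos2, at or below the floor of 3 counts. Every treated library was above every control, as was the case for 8.87% of all genes. The fitted log2 fold change between group means was 2.88 ± 1.09 (standard error). Its adjusted p was 0.261 in edgeR and 0.0563 in DESeq2. Like Arg1, Nos2 was highest among treated libraries in GOx-DOX-LGP 2. Slc3a2, the heavy chain shared by several amino acid transporters, was higher without overlap (0.54, adjusted p 0.317 from edgeR). Slc7a2, a cationic amino acid transporter gene of the liver, had a log2 fold change of -3.57, and Ddah1, whose product degrades methylated arginine, of -3.72. Slc7a1, the widely expressed transporter gene of the same family, measured 91.1, 14.9 and 6.46 CPM in the controls and 75.4, 58.1 and 66.5 CPM in the treated libraries. Slc7a3, with at most 0.989 CPM, was at 0 in control 7.

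For creatine, which is made from arginine, Gatm was higher without overlap, with 80.9, 57.1 and 51.2 CPM in controls 5, 6 and 7 against 81.2, 116 and 107 CPM in the treated libraries (log2 fold change 0.69, adjusted p 0.271 from edgeR). Gamt, the next enzyme, had a log2 fold change of -2.80, and the creatine transporter gene Slc6a8 of 0.92, both with overlap. Of the pyrimidine genes, Umps was lower without overlap (-0.40), and Cad (0.52) and Dhodh (-0.08) overlapped. The shares of all genes without overlap were 8.87% higher and 8.31% lower. Overlap is that with TMM scaling. With library totals alone, 0 of the 3 pyrimidine genes lay below 0, so the direction of Umps depended on the scaling.

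Of 7 regulators of urea cycle genes kept, 6 had a negative log2 fold change, and the median was -3.39. Hnf4a, a nuclear receptor of hepatocytes, measured 4.52, 717 and 1114 CPM in controls 5, 6 and 7 against 19.2, 6.56 and 11.3 CPM in the treated libraries (log2 fold change -5.63). Gcgr, the glucagon receptor gene (-5.67), Foxa2 (-5.05) and Cebpa (-3.39) were likewise higher in controls 6 and 7 than in all other libraries, and DESeq2 called 5 of the 7 lower, where it called 9.85% of all genes lower. Onecut1, the eighth gene of the list, which the edgeR filter removed, was also called lower by DESeq2 (-4.64, adjusted p 0.00565). Cebpb, a stress-responsive relative of Cebpa, was higher without overlap (0.54, adjusted p 0.281 from edgeR), as were 8.87% of all genes. Nr3c1, the glucocorticoid receptor gene, stayed between 169 and 232 CPM.

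**Figure D4:**
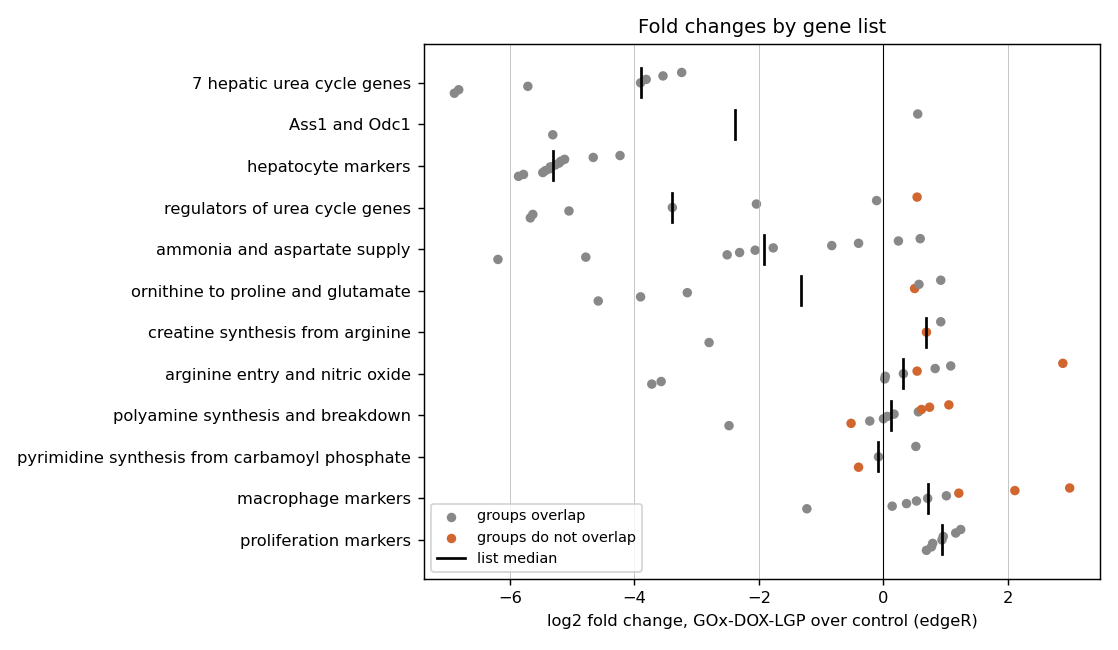
Log2 fold change of GOx-DOX-LGP over control from edgeR (horizontal axis) for each gene kept of 12 lists (rows), with black ticks at list medians and orange points for genes whose groups do not overlap. All 7 hepatic urea cycle genes lie below -3, as do the hepatocyte markers, whereas Odc1 and most polyamine genes lie near or above 0.

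The summed level of the hepatocyte markers, like each hepatic gene, was higher in controls 6 and 7 than in the other 4 libraries. All 12 hepatocyte markers had negative log2 fold changes, with a median of -5.31. Markers of periportal hepatocytes, the zone of the urea cycle, had a median of -5.69 over 6 genes, and those of pericentral hepatocytes, which include Glul and Oat, of -6.23 over 6. Summed levels were 21.6, 2550 and 4676 CPM for the periportal and 116, 11344 and 19045 CPM for the pericentral markers in controls 5, 6 and 7. In GOx-DOX-LGP 1, 2 and 5 they were 53.9, 54.3 and 48.0 CPM, and 324, 289 and 187 CPM. Globin and other erythroid markers were also higher in controls 6 and 7, with 406 and 425 CPM in sum, than in control 5 (13.2 CPM) and the treated libraries (13.8 to 42.0 CPM). The part of normal liver in the levels of the urea cycle genes was not tested.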

How the data were processed

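There were 3 control and 3 GOx-DOX-LGP tumor RNA libraries, grouped and numbered from their titles. The authors deposited raw counts for each gene, without normalization or pooling. Their methods name TopHat and HTSeq, while the submitters' processing notes list Trimmomatic 0.38, HISAT2 2.1.0 and featureCounts 2.0.0. Build, annotation and strand setting are not given in the sources used here. All 55536 gene identifiers are in GENCODE M21 (GRCm38), from which positions and exon lengths were taken. The second table holds signal values, which are the deposited counts divided by a size factor per library (0.5321 to 1.322), and gave the gene symbols.

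Analyses used edgeR 4.0.16, DESeq2 1.42.0 and limma 3.58.1 under R 4.3.3. Python 3.11.15 and matplotlib 3.10.9 served for the plots. Genes were filtered with filterByExpr, scaled with TMM, and compared by the edgeR quasi-likelihood test on all 6 libraries (no covariate), p-values being adjusted after Benjamini-Hochberg across all genes (threshold 0.05). The standard errors given with edgeR log2 fold changes were not fitted. They were derived as the absolute log2 fold change divided by the square root of the F statistic of the quasi-likelihood test. Log2 CPM used a prior count of 2. The floor of a library was 3 counts (0.132 to 0.323 CPM). Sequence sharing was counted as 50-base stretches of M21 transcripts. The tests were tested on simulated data.

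The members, lists and tests were chosen with earlier results of these data known. Named genes are the 10 members, the genes of each list with the largest changes or without overlap, the 3 nearest in profile to Cps1, Ass1, Arg2 and Odc1, and Alb, and further genes of the lists were picked after their values were seen. The alternatives comprised limma voom (with quality weights per library), the exact test of edgeR, DESeq2, other scalings and filters, and leaving out each library. Lists without control 5 and some gene pairs were added after values had been seen. Proteins were not used here. Some genes of the lists are not reported here.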

Additional observations from a re-analysis of the deposited data

How the results depend on the processing

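The 7 hepatic genes kept a negative log2 fold change under all alternatives run, and their median lay between -4.43 and -3.14 when each library was left out in turn, and was -2.98 with library totals alone. The number of members past the threshold, 0 with edgeR's quasi-likelihood test, became 8 with DESeq2, 7 with the edgeR exact test (all but Arg1 of the 8), and 9 with limma voom. Over all genes, 0 calls became 1626 lower and 113 higher with DESeq2, 1037 and 61 with the exact test, 4758 and 4496 with limma voom, and 4144 and 3601 without control 5. The number of members was 0 to 9 when a library was left out, 9 only without control 5. Other scalings and filters left that number at 0. The median over Ass1, Arg2 and Odc1 was -2.38 from Ass1 and Odc1 alone, since Arg2 was not kept. That median became 0.57 with DESeq2 and 0.60 without a filter, where Arg2 entered, and lay between -2.34 and 1.14 when a library was left out. The log2 fold change of Odc1 lay between 0.25 and 1.41 over all alternatives, and that of all genes had a median of 0.51 with library totals alone and 0.19 with the upper quartile, against 0.02 with TMM. With library totals, the medians of the pyrimidine genes and of the oncofetal markers turned from -0.08 to 0.56 and from -0.33 to 0.42, both compared with that shift of 0.51. No paired analysis was run, because the sample labels link no control library to a treated one. The log2 fold change of Arg2 lay between 1.04 and 1.64 in the fits without a library that kept it, with an unadjusted p of 0.0355 and an adjusted p of 0.605 without control 7 (edgeR). Counts of 2 to 16 limit Arg2. Nags is limited by 3 counts in control 5 and by 18, 6 and 10 counts in GOx-DOX-LGP 1, 2 and 5. For Nos2, the 3 and 2 counts in controls 6 and 7 are the limit.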

Other observations

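All 5 endothelial markers examined were lower in treated libraries without overlap with TMM scaling. Their median log2 fold change was -2.31, and with library totals alone it was -1.51 with 4 of the 5 below 0. Stab2, a scavenger receptor gene of liver sinusoids, measured 8.51, 86.8 and 93.9 CPM in controls 5, 6 and 7 against 7.51, 5.05 and 6.76 CPM in GOx-DOX-LGP 1, 2 and 5, with a log2 fold change of -3.29 (standard error 0.86). Pecam1, a general endothelial gene, measured 38.5, 44.1 and 42.3 CPM and 35.6, 33.7 and 33.8 CPM, a log2 fold change of -0.28. Over all genes, 8.31% were lower without overlap, and the adjusted p of both from edgeR was 0.247 and 0.408.

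The Odc1 pseudogene Gm7993 had 240 and 257 counts in controls 6 and 7 and 856 to 1133 in the others, and the Ass1 pseudogene Gm5424 had 55 and 68 counts in controls 6 and 7 and at most 1 in the others. The counting settings that would tell reads of a gene from those of its copy are not given in the sources used here.

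Without control 5, 8 of 11 genes for the supply of ammonia and aspartate were called lower and 2 higher, and for the uptake of arginine and nitric oxide 2 were called lower and 3 higher of 9 (edgeR, with 25.5% and 22.2% of all genes called lower and higher). The Nos2 log2 fold change was then 5.43 in place of 2.88, with an adjusted p of 0.000754. It rests on controls 6 and 7, with 3 and 2 counts of Nos2, where the floor taken here was 3 counts.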
